A study of Mus musculus with 14 samples.

Results

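The 10 genes described here are the myogenic transcription factors of mouse muscle with their satellite cell partners: Pax7, Myf5, Myod1, Myog, Myf6, Mymk, Mef2a, Mef2c, Mef2d and Ncam1. They were chosen by gene name in the deposited tables of read counts and of FPKM (fragment counts scaled for gene length and library size), where 10 of 10 names were found among 54532 genes. A filter on low counts left 15458 genes for testing, 9 of the 10 among them. Mymk, with 0 to 13 counts in a library, was removed. Satellite cells are the stem cells of skeletal muscle, lying between the fibre and its basal lamina, and the paired box factor Pax7 marks and maintains them. On activation they express Myf5 and Myod1, then Myog as they differentiate, and they fuse through the membrane protein Mymk (myomaker), while Myf6 is the family member most expressed in mature fibres. The Mef2 factors act with these basic helix-loop-helix (bHLH) factors at muscle genes, and Ncam1 is an adhesion molecule of satellite cells, neuromuscular junctions and denervated or regenerating fibres.

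RNA was sequenced from skeletal muscle of male FVB/N mice in 14 libraries. EC-Myc OE mice carried the Tet-O-Myc transgene (human c-Myc, Y-linked) together with Cdh5-tTA, in which the endothelial Cdh5 promoter drives the transactivator, and doxycycline was withdrawn at 4 to 6 weeks of age to induce c-Myc in endothelial cells. Control littermates (CT) carried Tet-O-Myc and lacked the transactivator. Mice of each genotype were fed a control diet (CTD) or a diet that sample titles call western (WD) and treatment notes call high-fat, for 20 weeks by those notes, which gave 3 CT-CTD, 3 CT-WD, 4 OE-CTD and 4 OE-WD libraries by the labels. The results text of the study gives a shorter time on diet, and a figure legend gives group sizes that do not match the labels. The labels were kept, the members and the list genes past the adjusted threshold were also computed with the names of CT-WD and OE-CTD exchanged, and which names hold was not tested. By the exchange, genotype on CTD becomes diet in CT by the labels, and genotype on WD becomes diet in EC-Myc OE. The exchanged values are thus these diet values and no second estimate of a genotype difference, though they are counted among the alternatives of each call. The numbers in the CT-WD sample names adjoin those of CT-CTD and not those of either EC-Myc OE group. Deviations from the group mean, taken over the tested genes, correlated between same-numbered CT-WD and CT-CTD libraries at 0.385, 0.123 and 0.203, against 0.0465, -0.113 and -0.122 between OE-CTD and CT-CTD, and 0.0711, 0.138, 0.142 and 0.338 between OE-WD and OE-CTD. The methods name soleus and gastrocnemius, and which muscle a library came from is not given. The labels do not state that the libraries are separate animals, so the p-values measure the spread between these samples. Among muscle fibre markers, 7 of 7 passed the filter, and their summed level was 110500 to 161300 CPM in a library (CPM, counts relative to the TMM-scaled library size), with Myh4 the most abundant at a mean of 48980 CPM.

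Total counts were 24101226, 24807368 and 25054855 at the lowest, median and highest CT-CTD library, and 21833839, 23814408 and 26518734 at the same points of CT-WD. For OE-CTD they were 22083340, 24226483 and 28519159, and for OE-WD 22033140, 26198262 and 27698046. Some libraries stood apart from others of their group. OE-CTD 4 and OE-WD 4 had the highest shares of mitochondrial mRNA, 14.6% and 14.2% of counts against 9.34% to 12.6% in the other libraries, and the lowest TMM factors, 0.888 and 0.899. Their summed fast fibre markers reached 155000 and 160700 CPM, the highest of the 14 libraries. The sample names also fell into sets: replicate 1 of both CT groups had consecutive numbers in their names, replicates 2 and 3 of both CT groups had consecutive numbers of another series, and the EC-Myc OE names were numbered in other series again. Within EC-Myc OE, the 4 OE-WD names shared their digits and 3 of 4 OE-CTD names shared theirs. Counts of each pair of libraries within a group were compared by a chi-square per degree of freedom, which is near 1 for counting noise alone. It was 8.02 to 10.97 among OE-CTD 1, 2 and 3, which share digits, and 39.05 to 45.09 between these and OE-CTD 4, which does not. Among OE-WD 1, 2 and 3 it was 8.78 to 15.77 and between these and OE-WD 4, which shares their digits, 40.8 to 44.55. CT-CTD libraries differed by 17.65 to 28.29 and CT-WD libraries by 31.53 to 53.15. Whether the closer libraries come from separate animals was not tested, and their spread enters every p-value. What these digits stand for is not given, and a difference between number series and a difference between genotypes cannot be told apart. Several members followed these sets within the CT libraries, so values without a CT set are given with these members, and leaving out these sets was chosen after seeing the data.

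On the FPKM scale, which allows levels to be compared between genes, Myf6 was the most abundant of the 10, with a mean of 106.6 FPKM ± 50.6 (SD, n = 14) and a range of 73.3 to 262. Mef2d followed at 59.1 FPKM ± 5.83 and Mef2c at 38.0 FPKM ± 4.56 (SD, n = 14 for both). Myod1 came next at 16.7 FPKM ± 4.76 (range 11.3 to 25.2) and Myog at 10.2 FPKM ± 13.5 (range 4.25 to 56.2). Mef2a had 8.58 FPKM ± 0.775 and Ncam1 1.70 FPKM ± 0.301 (SD, n = 14 for both). The least abundant were Myf5 at 0.595 FPKM ± 0.153, Pax7 at 0.300 FPKM ± 0.116 and Mymk at 0.164 FPKM ± 0.115 (SD, n = 14 for each). Myf6, Mef2d, Mef2c, Mef2a and Ncam1 each exceeded the next gene of this order in 14 of 14 libraries, Myod1 and Myf5 in 13, and Pax7 in 11. Myog exceeded Mef2a in only 3 of 14 libraries, so these neighbours were not apart beyond their spread, and the mean of Myog was carried by CT-WD 3.

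**Figure D1:**
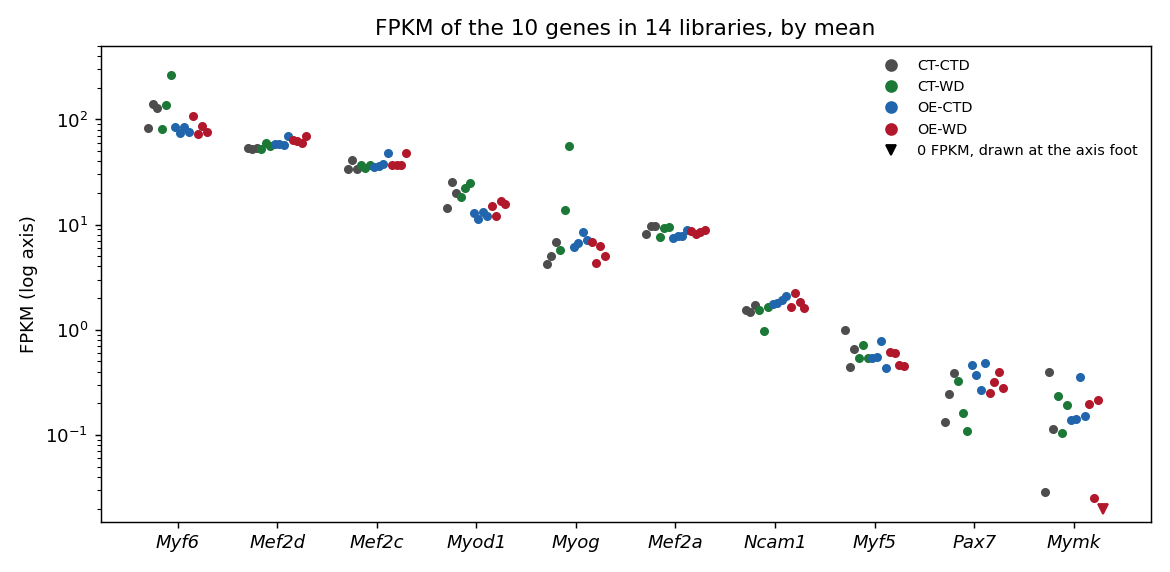
FPKM of the 10 genes on a log axis, ordered by their mean, with a point for each of the 14 libraries. The triangle at the foot of the axis is a library with 0 FPKM, and the highest Myog point, 56.2 FPKM, is CT-WD 3.

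Differences between groups were few among the tested members. Myod1, lower in OE-CTD than in CT-CTD, was the only member below an adjusted p of 0.05 in any of the 5 comparisons, by edgeR's quasi-likelihood test with Benjamini-Hochberg adjustment over the 15458 genes. The question of diet within CT (CT-WD relative to CT-CTD) gave 0 of 9 members by edgeR, beside 0% of all genes tested, with 1 member, Myog, at an unadjusted p under 0.05, beside 7.28% of all genes. DESeq2, beside 0.226% of all genes, and limma on log2(FPKM + 1), beside 0%, also gave 0. Diet within EC-Myc OE (OE-WD relative to OE-CTD) gave 0 of 9 by edgeR, beside 0.00647% of all genes, and 0 at an unadjusted p under 0.05, beside 4.2%. DESeq2 and limma gave 0 as well, each beside 0.00647%. Genotype on WD (OE-WD relative to CT-WD) gave 0 of 9 by edgeR, beside 0.725% of all genes. DESeq2 gave 2, Myod1 and Myog, beside 3.73% of all genes by that tool, and limma 0, beside 0.311%. At an unadjusted p under 0.05 there were 5, Myf6, Myod1, Myog, Mef2d and Ncam1, beside 16.9% of all genes. Genotype on CTD (OE-CTD relative to CT-CTD) gave 1 of 9 by edgeR, beside 2.67% of all genes. DESeq2 gave 1, beside 5.27%, and limma 0, beside 1.49%. Myod1, Mef2a and Mef2d made up the 3 at an unadjusted p under 0.05, beside 15.9% of all genes. The interaction, which asks whether the diet response differed between genotypes, gave 0 of 9 by edgeR, beside 0% of all genes. DESeq2 gave 0, beside 0.0194%, and limma 0, beside 0%. By edgeR 1 member, Myog, had an unadjusted p under 0.05, beside 5.92%. The median log2 fold change of the 9 tested members was 0.006, 0.02, -0.045, 0.116 and 0.014 in these comparisons in the order given, against 0.0071, 0.0048, 0.0056, -7e-04 and -0.0057 over all genes. The comparisons share groups with each other, so their values stand side by side and are no independent evidence of each other.

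**Figure D2:**
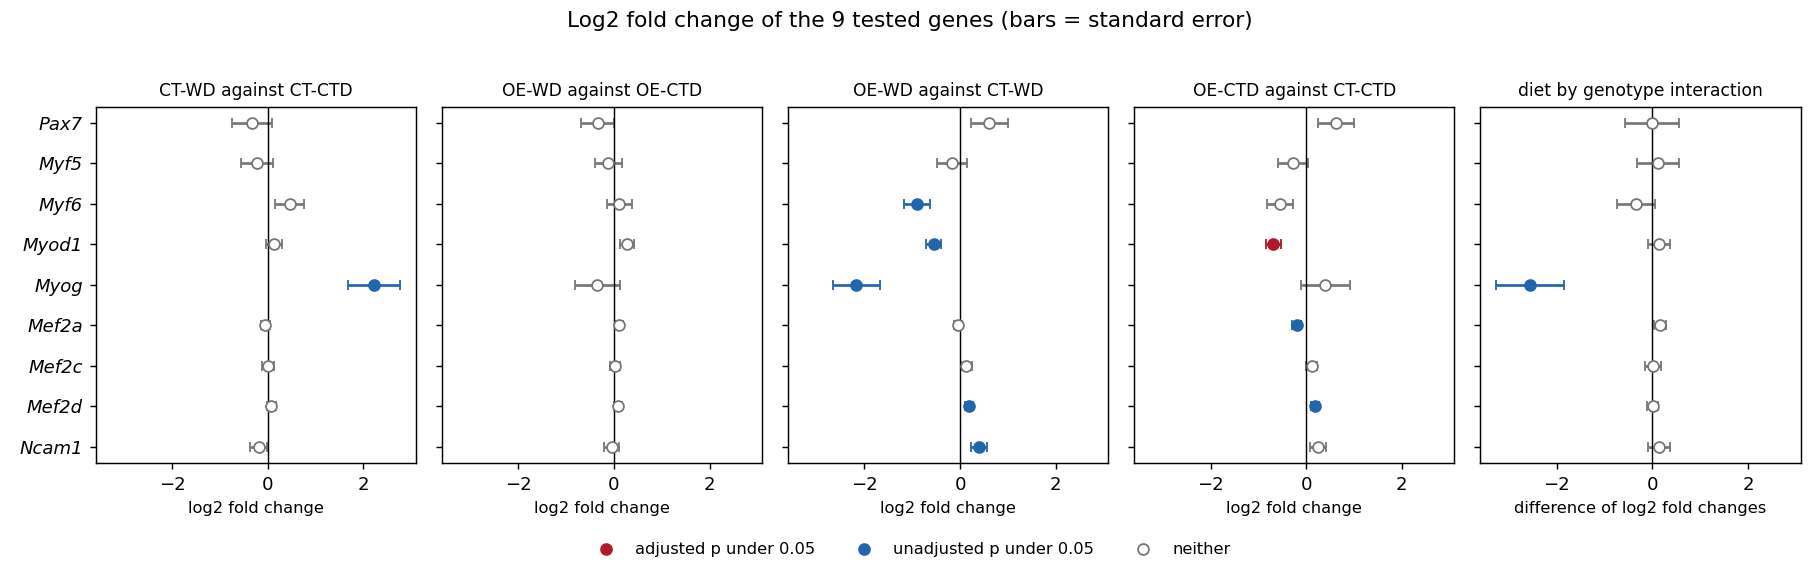
Log2 fold change with its standard error for the 9 tested genes in the 5 comparisons. Red marks an adjusted p under 0.05 (Myod1 in OE-CTD relative to CT-CTD), blue an unadjusted p under 0.05, and open grey neither.

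Pax7 (ENSMUSG00000028736, GRCm38 chromosome 4, 139737062 to 139833528, minus strand) was measured by 13 to 65 counts in a library. In CT-CTD its 3 libraries had 0.712, 1.30 and 2.10 CPM, and in CT-WD 1.77, 0.870 and 0.578 CPM. In OE-CTD the 4 libraries had 2.49, 2.01, 1.44 and 2.55 CPM, and in OE-WD 1.36, 1.72, 2.13 and 1.49 CPM. The lowest values lay in CT libraries and the highest in OE-CTD, but CT-CTD 3 and CT-WD 1 lay within the EC-Myc OE range, so the genotypes overlapped on both diets. Relative to CT, the log2 fold change of Pax7 was 0.63 in EC-Myc OE on CTD (SE 0.384, adjusted p = 0.47) and 0.61 on WD (SE 0.395, adjusted p = 0.463), neither past the test. The diet differences were -0.33 in CT (SE 0.424, adjusted p = 0.934) and -0.34 in EC-Myc OE (SE 0.347, adjusted p = 1), with an interaction of -0.01 (adjusted p = 1). In bulk tissue, fewer satellite cells and less Pax7 RNA per cell cannot be told apart. The difference in Pax7 on WD moved with CT-WD 1, the highest of its group: without it the log2 fold change was 1.21 (adjusted p = 0.0866), with CT replicate 1 of both diets left out 1.21 (adjusted p = 0.049), and with CT replicates 2 and 3 left out -0.082, with adjusted p over all alternatives from 0.049 to 1.

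Counts of list genes at an unadjusted p under 0.05 stand, here and for the lists that follow, beside 7.28% of all genes in CT diet, 4.2% in EC-Myc OE diet, 16.9% in genotype on WD, 15.9% in genotype on CTD and 5.92% in the interaction, and adjusted counts beside 0%, 0.00647%, 0.725%, 2.67% and 0%. Of the 12 satellite cell markers, Pax7 and Myf5 included, 12 passed the filter, and their summed level overlapped across groups, with means of 228.9 CPM ± 18.6 (SD, n = 3) in CT-CTD, 235.6 ± 30.3 (n = 3) in CT-WD, 227.7 ± 3.31 (n = 4) in OE-CTD and 236.8 ± 4.72 (n = 4) in OE-WD. Itga7, a laminin receptor subunit that fibres also express, was the most abundant at a mean of 108.9 CPM, and Calcr and Megf10 were near 0, each with a mean under 1 CPM. By edgeR, 1 of the 12 was higher in OE-WD than in CT-WD at an adjusted p under 0.05 and 0 were lower, with 3 higher and 1 lower at an unadjusted p under 0.05 and a median log2 fold change of 0.13. That gene was Heyl, a Notch target of quiescent satellite cells that vascular cells express too. The 3 CT-WD libraries had 18.1, 11.2 and 13.6 CPM of Heyl, and the 4 OE-WD libraries 22.02, 20.7, 25.0 and 21.98 CPM, so the groups did not overlap, and Heyl rose by a log2 fold change of 0.65 (SE 0.137, adjusted p = 0.043). That call was kept in 5 of 24 alternatives, and in 1 of 14 with a single library left out, where the value for Heyl ran from 0.50 to 0.85. It was 0.31 with CT replicates 2 and 3 left out and 0.076 with the names of CT-WD and OE-CTD exchanged, and the replicate block lost the call, at 0.68, as did a fit of only the groups compared, at 0.64. On CTD the difference in Heyl was 0.51 (SE 0.137, adjusted p = 0.0614), also without overlap between 13.7 to 16.0 CPM in CT-CTD and 19.0 to 23.3 CPM in OE-CTD. Sdc4, a heparan sulfate proteoglycan of satellite cells and other cells, had 35.9, 53.9 and 80.1 CPM in CT-WD against 26.9 to 36.7 in CT-CTD and 29.5 to 40.1 in OE-WD, highest in CT-WD 3. Relative to CT-CTD, the log2 fold change of Sdc4 in CT-WD was 0.84 (SE 0.214, adjusted p = 0.394). For genotype on WD it was -0.72 (SE 0.197, adjusted p = 0.0946). CT-WD 1 lay within the Sdc4 ranges of CT-CTD and OE-WD, and only CT-WD 2 and CT-WD 3 lay above them. In every other comparison 0 of the 12 markers passed by edgeR, with 2, 0, 1 and 2 at an unadjusted p under 0.05 in CT diet, EC-Myc OE diet, genotype on CTD and interaction, and medians of -0.052, 0.052, 0.177 and -0.007. Sdc4 and Itga7 were the ones at an unadjusted p under 0.05 in CT diet and in the interaction, with Itga7 at -0.25 and 0.30 on the log2 scale.

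Myf5 (ENSMUSG00000000435, GRCm38 chromosome 10, 107482908 to 107486134, minus strand), the earliest of the myogenic bHLH factors to be expressed in the embryo, was measured by 16 to 48 counts in a library. CT-CTD 1 had the highest level, 1.90 CPM, and OE-CTD 4 the lowest, 0.817 CPM. Group means were 1.34 CPM ± 0.534 (SD, n = 3) in CT-CTD, 1.14 ± 0.184 (n = 3) in CT-WD, 1.10 ± 0.279 (n = 4) in OE-CTD and 1.01 ± 0.171 (n = 4) in OE-WD, and the ranges of the 4 groups overlapped. None of the 5 comparisons of Myf5 reached an unadjusted p under 0.05 by edgeR, with log2 fold changes of -0.28 in OE-CTD relative to CT-CTD (adjusted p = 0.73) and -0.16 in OE-WD relative to CT-WD (adjusted p = 0.838). Myf5 lies 6718 bases from Myf6 on the same strand, and the library with the highest level was CT-CTD 1 for Myf5 and CT-WD 3 for Myf6.

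Myod1 (ENSMUSG00000009471, GRCm38 chromosome 7, 46376474 to 46379099, plus strand) is the factor that can turn other cell types into muscle, and in adult fibres it is expressed more in fast than in slow ones. In CT-CTD its libraries had 24.6, 42.6 and 34.6 CPM, and in OE-CTD 22.3, 19.3, 22.5 and 20.1 CPM. Each of the 4 OE-CTD libraries lay below each of the 3 CT-CTD libraries, with CT-CTD 1 close to the OE-CTD range. Myod1 fell in OE-CTD relative to CT-CTD, with a log2 fold change of -0.69 (SE 0.16, adjusted p = 0.0346), which is 1.61-fold lower. The CT-WD libraries had 31.4, 37.7 and 42.3 CPM and the OE-WD libraries 25.8, 20.5, 28.8 and 26.4 CPM, again without overlap. That difference, -0.55 (SE 0.159, adjusted p = 0.111), did not pass by edgeR and did by DESeq2 (adjusted p = 0.037, over a range of 0.00793 to 1 across all alternatives). Diet gave 0.13 in CT (SE 0.17, adjusted p = 0.934) and 0.27 in EC-Myc OE (SE 0.15, adjusted p = 1), with an interaction of 0.14 (adjusted p = 0.96).

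The call for Myod1 on CTD depended on single libraries. Without CT-CTD 2 the log2 fold change of Myod1 was -0.49 (adjusted p = 0.19) and without CT-CTD 3 -0.67 (adjusted p = 0.133). Without OE-CTD 1, 2, 3 or 4 it was -0.72, -0.65, -0.72 or -0.67, with adjusted p of 0.0656, 0.106, 0.0748 or 0.0573. Adjusted p of Myod1 over all alternatives ran from 0.00104 to 0.934. By limma on log2(FPKM + 1) the difference was -0.61 (adjusted p = 0.0742) and with a pseudocount of 0.1 it was -0.65 (adjusted p = 0.0694). With the replicate numbers as a block it was -0.64 (adjusted p = 0.151). With the names of the CT-WD and OE-CTD groups exchanged, the difference on CTD was 0.13, which is the diet value in CT by the labels. Both genotype comparisons of Myod1 also followed the sample name sets. Replicates 2 and 3 of the CT groups had 34.6 to 42.6 CPM, while replicate 1 of the CT groups had 24.6 to 31.4 CPM, which overlapped the 19.3 to 28.8 CPM of the 8 EC-Myc OE libraries. With CT replicate 1 left out on both diets, the difference in Myod1 on CTD was -0.87 (adjusted p = 0.00233), and with CT replicates 2 and 3 left out, where the lone library of each CT group is assumed to vary like the other groups, it was -0.22 (adjusted p = 0.762). On WD, leaving out CT-WD 1 gave -0.66 (adjusted p = 0.0272), leaving out CT replicate 1 of both diets gave -0.66 (adjusted p = 0.00793), leaving out CT replicates 2 and 3 of both diets gave -0.31 (adjusted p = 1), and leaving out CT-WD 3 gave -0.45.

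**Figure D3:**
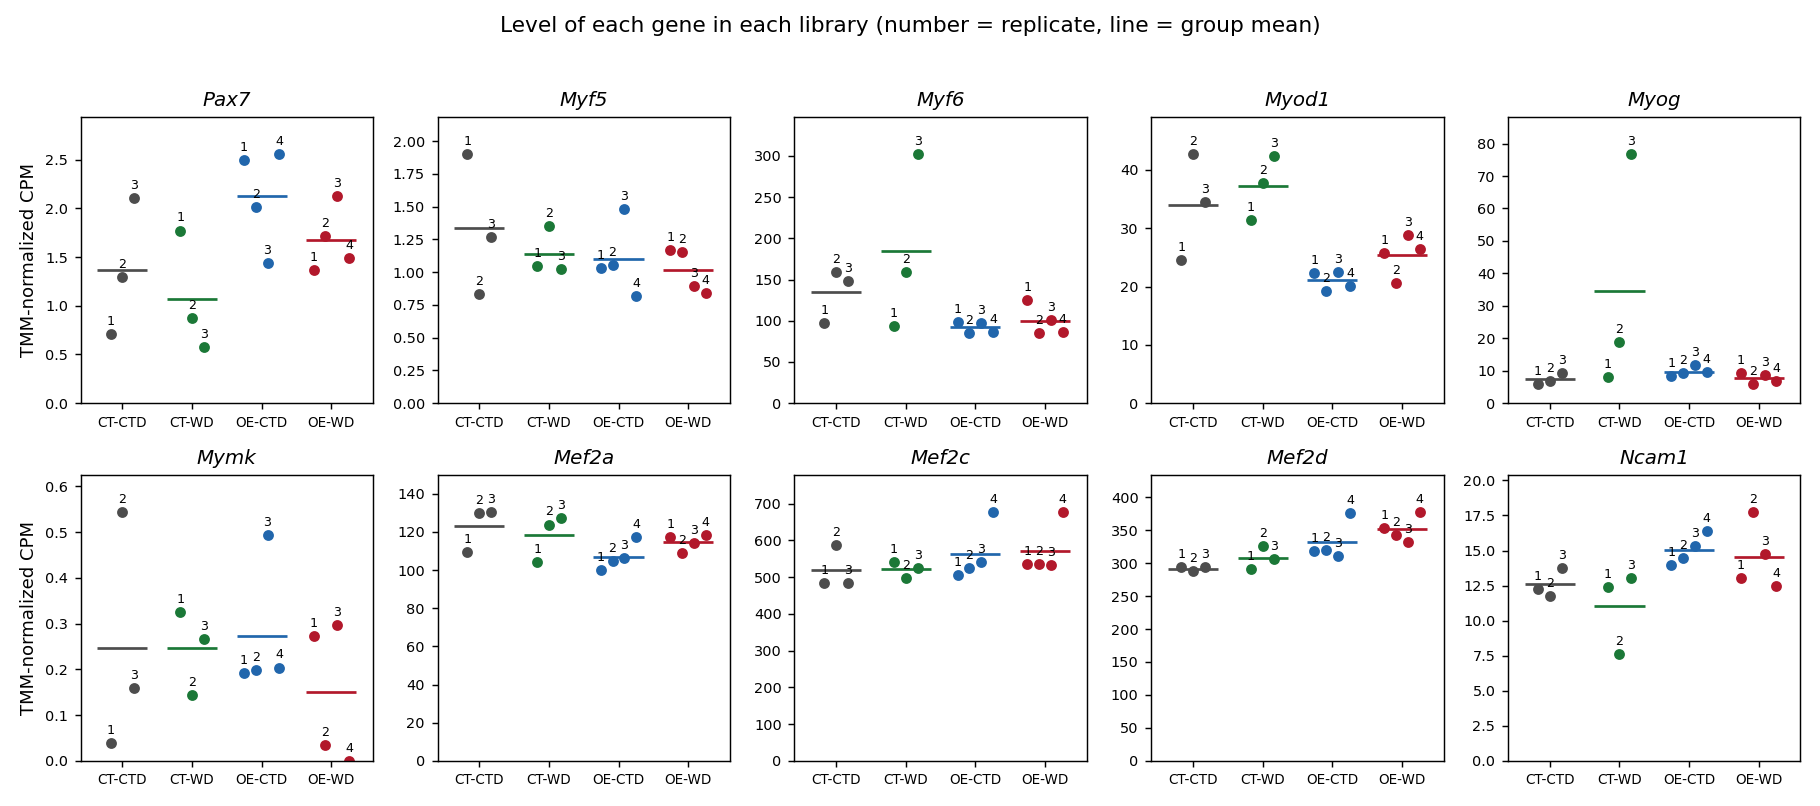
CPM of each of the 10 genes in each library, by group, with the replicate number above each point and a line at the group mean. Myod1 lies at 19.3 to 22.5 CPM in OE-CTD and 24.6 to 42.6 CPM in CT-CTD, and Myog stands at 76.6 CPM in CT-WD 3.

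Myog (ENSMUSG00000026459, GRCm38 chromosome 1, 134289989 to 134292548, plus strand), the factor of terminal differentiation that is also induced in denervated fibres, varied most of the tested members. The CT-WD libraries had 7.95, 18.9 and 76.6 CPM, from 220, 392 and 1724 counts. In CT-CTD they had 5.85, 6.90 and 9.41 CPM, in OE-CTD 8.43, 9.27, 11.8 and 9.54 CPM, and in OE-WD 9.46, 5.86, 8.64 and 6.75 CPM. CT-WD 3, and to a lesser degree CT-WD 2, stood above the other 12 libraries, whose ranges overlapped across groups, CT-WD 1 among them. The group means were 34.5 CPM ± 36.9 (SD, n = 3) in CT-WD and 7.39 ± 1.83 (n = 3) in CT-CTD, a log2 fold change of 2.22 (SE 0.544, adjusted p = 0.394). It did not pass after adjustment, and the spread within CT-WD exceeded its mean. For genotype on WD the log2 fold change of Myog was -2.17 (SE 0.492, adjusted p = 0.0559), and the interaction was -2.57 (SE 0.713, adjusted p = 0.825). Within EC-Myc OE diet gave -0.35 (SE 0.469, adjusted p = 1), and on CTD genotype gave 0.40 (SE 0.511, adjusted p = 0.773).

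The Myog values moved with CT-WD 3 and CT-WD 1. Without CT-WD 3 the diet difference of Myog in CT was 0.85 (adjusted p = 0.893), the genotype difference on WD -0.80 (adjusted p = 0.348) and the interaction -1.20. Without CT-WD 1 they were 2.69 (adjusted p = 0.00959), -2.64 (adjusted p = 0.00146) and -3.04 (adjusted p = 0.124). Over all alternatives the adjusted p ran from 0.00033 to 1 for diet in CT, from 2.77e-05 to 1 for genotype on WD, and from 0.00944 to 1 for the interaction. DESeq2 gave -2.18 for genotype on WD (adjusted p = 0.00982). With CT replicate 1 of both diets left out, the diet difference of Myog in CT was 2.55 (adjusted p = 0.0362) and the genotype difference on WD -2.64 (adjusted p = 0.00141). With CT replicates 2 and 3 left out they were 0.44 (adjusted p = 1) and -0.05 (adjusted p = 1).

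Myf6 (ENSMUSG00000035923, GRCm38 chromosome 10, 107492853 to 107494737, minus strand), the factor most tied to mature fibres, had 96.9, 159.4 and 148.4 CPM in CT-CTD and 93.8, 159.2 and 301.6 CPM in CT-WD. In OE-CTD it had 97.9, 85.6, 97.7 and 86.7 CPM, and in OE-WD 125.6, 84.8, 101.0 and 85.8 CPM. Replicates 2 and 3 of both CT groups stood above the 8 EC-Myc OE libraries, and replicate 1 of both CT groups lay among them. CT-WD 3 was the highest, as for Myog. The log2 fold change of Myf6 was -0.90 in OE-WD relative to CT-WD (SE 0.276, adjusted p = 0.126) and -0.55 in OE-CTD relative to CT-CTD (SE 0.277, adjusted p = 0.352), neither past the test. Diet gave 0.45 in CT (SE 0.297, adjusted p = 0.839) and 0.11 in EC-Myc OE (SE 0.258), with an interaction of -0.34 (adjusted p = 0.944). On WD the Myf6 difference was -0.35 without CT-WD 3 (adjusted p = 0.634), -1.21 without CT-WD 1 (adjusted p = 0.0058) and 0.084 without CT replicates 2 and 3 of both diets, with adjusted p over all alternatives from 0.00323 to 1. With CT replicate 1 of both diets left out, Myf6 differed by -1.21 on WD (adjusted p = 0.00323) and by -0.74 on CTD (adjusted p = 0.0457), both past the threshold. With CT replicates 2 and 3 left out the Myf6 difference on CTD was -0.074 (adjusted p = 0.955).

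Of 17 bHLH partners and inhibitors, the proteins that pair with the myogenic bHLH factors or hold them back, 17 passed the filter. In each genotype comparison edgeR gave 1 higher and 0 lower, with medians of 0.157 on CTD and 0.248 on WD against -7e-04 and 0.0056 over all genes. Those at an unadjusted p under 0.05 were 4 higher on CTD and 3 higher on WD, with 0 lower on either diet. The gene was Bhlhe40 on both diets, a repressor known to interact with Myod1 and to follow circadian and hypoxic signals. Bhlhe40 had 121.4, 102.2 and 81.7 CPM in CT-CTD, 124, 63.1 and 64.9 CPM in CT-WD, 184.5, 217.7, 207.2 and 189.7 CPM in OE-CTD, and 158.7, 174.9, 163.5 and 164.6 CPM in OE-WD. Each of the 8 EC-Myc OE libraries lay above each of the 6 CT libraries. Bhlhe40 rose by 0.97 on the log2 scale on CTD (SE 0.193, adjusted p = 0.0166) and by 0.98 on WD (SE 0.193, adjusted p = 0.0325). With single libraries left out the Bhlhe40 call was kept in 10 of 14 cases on CTD, with values of 0.84 to 1.11, and in 6 of 14 on WD, with 0.81 to 1.37. With CT replicates 2 and 3 left out it was 0.72 on CTD, where the call was kept, and 0.42 on WD, where it was lost. It was -0.28 on CTD and -0.27 on WD with the names of CT-WD and OE-CTD exchanged, which are the diet values by the labels in CT and in EC-Myc OE. The replicate block lost both Bhlhe40 calls, at 1.01 on CTD and 1.05 on WD, and a fit of only the groups compared lost that on WD, at 0.97. Over all 24 alternatives the call was kept in 18 on CTD and in 12 on WD. In CT diet 0 of 17 passed by edgeR, with 2 at an unadjusted p under 0.05, Msc at 0.95 and Hey1 at 0.53, both repressors of the bHLH class. Msc had 1.12, 2.17 and 0.978 CPM in CT-WD against 0.593, 1.13 and 0.4765 CPM in CT-CTD, highest in CT-WD 2. Hey1 had 7.56, 6.67 and 12.05 CPM in CT-WD against 5.18, 6.74 and 6.23 CPM in CT-CTD, highest in CT-WD 3. In EC-Myc OE diet 0 passed, with 2 at an unadjusted p under 0.05, Tcf12, an E protein partner, at 0.22 and Hes6 at -0.29. In the interaction 0 passed and Hes6, at -0.44, had an unadjusted p under 0.05. The medians of these last 3 comparisons were 0.056, 0.006 and -0.245, and Twist2, Mdfi and Snai1 were near 0, each with a mean under 1 CPM.

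Mymk (ENSMUSG00000009214, GRCm38 chromosome 2, 27061636 to 27072179, minus strand), the myoblast membrane protein needed for fusion, was close to the detection limit. CT-CTD libraries held 1, 13 and 4 counts, CT-WD 9, 3 and 6, OE-CTD 5, 6, 12 and 4, and OE-WD 7, 1, 7 and 0, where a count of 0 allows up to 3. Counts above 10 occurred in CT-CTD 2 and OE-CTD 3, and the groups overlapped throughout. Mymk was removed by the filter and had no test in the main fit. Of the 12 fusion genes, 10 passed the filter, with Mymk and Mymx, the other muscle-specific fusion protein, removed. By edgeR 0 of 10 fusion genes passed in any comparison. At an unadjusted p under 0.05 there were 3 higher in OE-CTD relative to CT-CTD, 2 higher in OE-WD relative to CT-WD and 0 in the other comparisons, with medians of 0.168 and 0.152 in the genotype comparisons and -0.01, -0.045 and -0.019 in CT diet, EC-Myc OE diet and the interaction. Dock1, a Rac activator, had a log2 fold change of 0.57 on CTD (SE 0.162, adjusted p = 0.0791), and Myof, a membrane repair protein, 0.67 on CTD and 0.54 on WD. Jam2, an adhesion molecule also found on endothelium, had 0.27 on WD.

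Mef2a (ENSMUSG00000030557, GRCm38 chromosome 7, 67231163 to 67372858, minus strand) had 109, 130 and 130 CPM in CT-CTD and 104, 124 and 127 CPM in CT-WD. In OE-CTD it had 100, 105, 106 and 117 CPM, and in OE-WD 118, 109, 114 and 118 CPM. Replicates 2 and 3 of both CT groups, at 123.9 to 130.4 CPM, were above the other 10 libraries, while replicate 1 of both CT groups lay among the EC-Myc OE values. The log2 fold change of Mef2a was -0.20 in OE-CTD relative to CT-CTD (SE 0.0895, adjusted p = 0.277) and -0.05 in OE-WD relative to CT-WD (adjusted p = 0.84), with an interaction of 0.16 (SE 0.127, adjusted p = 0.915). On CTD the Mef2a difference was -0.28 with CT replicate 1 of both diets left out (adjusted p = 0.0602) and -0.0295 with CT replicates 2 and 3 left out (adjusted p = 0.976), the lowest and highest adjusted p over all alternatives, and -0.056 with the group names exchanged. The gene overlaps Lysmd4, Gm44667 and Gm44668, of which the most abundant had a mean of 10.5 CPM, and since the strand setting of the counting is not given, a share of reads from these cannot be told apart.

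Mef2c (ENSMUSG00000005583, GRCm38 chromosome 13, 83504034 to 83667080, plus strand) ranged from 484 to 677 CPM, and its group means were 519 CPM ± 59.6 (SD, n = 3) in CT-CTD, 521 ± 22.9 (n = 3) in CT-WD, 562 ± 77.5 (n = 4) in OE-CTD and 570 ± 70.6 (n = 4) in OE-WD. OE-CTD 4 and OE-WD 4 were the highest, at 677 and 676 CPM, and the other 12 libraries lay between 484 and 588 CPM, with overlap of all groups. Log2 fold changes of Mef2c were 0.12 in OE-CTD relative to CT-CTD (adjusted p = 0.703) and 0.13 in OE-WD relative to CT-WD (adjusted p = 0.623), and 0.01 and 0.02 for diet in CT and in EC-Myc OE.

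Mef2d (ENSMUSG00000001419, GRCm38 chromosome 3, 88142372 to 88172086, plus strand) had 294, 288 and 294 CPM in CT-CTD and 291, 325 and 307 CPM in CT-WD. In OE-CTD it had 319, 320, 312 and 376 CPM, and in OE-WD 353, 342, 332 and 377 CPM. Every EC-Myc OE library lay above every CT library of its diet, by small margins, and OE-CTD 4 and OE-WD 4 were again the highest. The log2 fold change of Mef2d was 0.18 in OE-CTD relative to CT-CTD (SE 0.0837, adjusted p = 0.295) and 0.19 in OE-WD relative to CT-WD (SE 0.0837, adjusted p = 0.263), neither past the test. Without OE-CTD 4 the difference of Mef2d on CTD was 0.12 (adjusted p = 0.444), and without OE-WD 4 the difference on WD was 0.16 (adjusted p = 0.406), within adjusted p over all alternatives of 0.233 to 0.925 and 0.173 to 1. The mitochondrial mRNA share and the fast fibre sum were highest in the same libraries as Mef2c and Mef2d, and their part in these values was not tested.

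The 16 cofactors and signals of the Mef2 factors, among them the class IIa deacetylases that hold Mef2 back and the calcineurin subunits that release it, passed the filter in 16 of 16 cases. By edgeR 0 of 16 passed in each of the 5 comparisons. At an unadjusted p under 0.05 there were 2 in CT diet, 1 in EC-Myc OE diet, 1 in genotype on WD, 4 in genotype on CTD and 3 in the interaction, with medians of 0.03, -0.003, -0.019, 0.034 and -0.04. Sik1, a kinase that acts on class IIa deacetylases, had 22.03, 23.5 and 26.2 CPM in CT-CTD and 47.4, 46.3 and 90.0 CPM in CT-WD, without overlap. Its log2 fold change was 1.36 in CT diet (SE 0.249, adjusted p = 0.277), 0.91 in OE-CTD relative to CT-CTD (SE 0.235, adjusted p = 0.0528), -0.49 in OE-WD relative to CT-WD and -1.40 in the interaction (adjusted p = 0.71). The OE-WD libraries had 48.8, 36.3, 49 and 40.7 CPM of Sik1. CT-WD 1 and CT-WD 2 lay within that range, and only CT-WD 3 lay above it. Rcan1, the calcineurin inhibitor that calcineurin itself induces, had 489.8 CPM in CT-WD 3 and 129.3 to 267.9 CPM in the other libraries, with log2 fold changes of 0.90 in CT diet and -1.09 in the interaction. Without CT-WD 3 these Rcan1 values were 0.22 and -0.40. Hdac9, at -0.68 in EC-Myc OE diet, and Carm1, an arginine methyltransferase, at -0.35 in genotype on CTD, were the remaining named genes at an unadjusted p under 0.05.

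Ncam1 (ENSMUSG00000039542, GRCm38 chromosome 9, 49502136 to 49798925, minus strand) had 12.3, 11.8 and 13.7 CPM in CT-CTD and 12.4, 7.63 and 13.1 CPM in CT-WD. In OE-CTD it had 13.95, 14.5, 15.3 and 16.4 CPM, and in OE-WD 13.1, 17.7, 14.8 and 12.5 CPM. On CTD the genotypes did not overlap, by a margin between 13.7 and 13.95 CPM, and on WD they did, with CT-WD 2 the lowest library of all. The log2 fold change of Ncam1 was 0.39 in OE-WD relative to CT-WD (SE 0.165, adjusted p = 0.245) and 0.25 in OE-CTD relative to CT-CTD (SE 0.164, adjusted p = 0.501), neither past the test. Without CT-WD 2 the Ncam1 difference on WD was 0.19 (adjusted p = 0.649), without CT-WD 3 it was 0.53 (adjusted p = 0.325), and adjusted p over all alternatives ran from 0.115 to 1.

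Myog, Myod1 and Ncam1 belong to the response of fibres to loss of their nerve, of which 14 genes were tested, with Hdac4 the most abundant at a mean of 51.8 CPM and Chrng near 0. By edgeR 1 of 14 was lower and 0 higher in each genotype comparison, Myod1 on CTD and Gadd45a, a stress gene that drives fibre atrophy after denervation, on WD. The medians were -0.154 on CTD and -0.277 on WD, and at an unadjusted p under 0.05 there were 3 lower and 1 higher on CTD (15.9% of all genes passed) and 6 lower and 1 higher on WD (16.9% of all genes). Gadd45a had 22.4, 14.2 and 24.9 CPM in CT-WD and 12.1, 7.996, 9.19 and 6.71 CPM in OE-WD, without overlap, and fell, with a log2 fold change of -1.19 (SE 0.238, adjusted p = 0.0345). With single libraries left out the Gadd45a call was kept in 8 of 14 cases, with values of -1.39 to -1.03, and with the group names exchanged the value was 0.042. The Gadd45a call was kept in 12 of all 24 alternatives. It was lost with the replicate block (-1.05), with only the groups compared (-1.19), by limma with either pseudocount (-1.04 and -1.16) and with CT replicates 2 and 3 left out (-1.31). Musk, the receptor kinase of the neuromuscular junction, had 24.2, 36.2 and 49.1 CPM in CT-CTD, 20.6, 42.1 and 62.4 CPM in CT-WD, 13.9, 14.7, 16.5 and 28.9 CPM in OE-CTD, and 25.4, 15.5, 17.8 and 28.7 CPM in OE-WD. Its groups overlapped on both diets, through replicate 1 of the CT groups, and its log2 fold changes of -0.99 on CTD (adjusted p = 0.153) and -0.93 on WD (adjusted p = 0.186) did not pass. In CT diet 0 of 14 passed by edgeR, with 3 higher and 1 lower at an unadjusted p under 0.05 and a median of 0.161. EC-Myc OE diet and the interaction gave 0 by edgeR, with 1 at an unadjusted p under 0.05 in each, Dach2 at -0.47 and Myog, and medians of -0.019 and -0.061.

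Of 8 genes of developing and regenerating fibres, Ncam1 included, 8 passed the filter. By edgeR 1 was higher in OE-CTD relative to CT-CTD, with a median of 0.193, and 0 in the other comparisons, where 3, 0, 1 and 2 had an unadjusted p under 0.05 in CT diet, EC-Myc OE diet, genotype on WD and interaction, with medians of 0.06, -0.035, 0.25 and 0.027. The gene was Actc1, the cardiac actin that embryonic muscle expresses, with 10.4, 17.7 and 14.2 CPM in CT-CTD and 27.4, 44.5, 41.4 and 33.4 CPM in OE-CTD, without overlap. Actc1 rose by a log2 fold change of 1.38 (SE 0.353, adjusted p = 0.0493), a call kept in 4 of 14 cases with a single library left out, with values of 1.20 to 1.58. The Actc1 call was kept in 9 of 24 alternatives. It was lost with the replicate block (1.42), with the group names exchanged (0.98), by limma with either pseudocount (1.30 and 1.38) and with CT replicates 2 and 3 left out (1.82). Its CT-WD libraries had 46.4, 19.8 and 17.1 CPM and its OE-WD libraries 24.2, 34.3, 20.0 and 49.7 CPM, which overlapped. Its interaction was -1.18, a value that includes CT-WD 1, which stood far above the other CT-WD libraries. Myh8, the perinatal myosin, had 19.8 CPM in CT-CTD 2, 4.47 and 5.48 CPM in the other CT-CTD libraries, and 3.035 to 7.63 CPM in the remaining groups. Its log2 fold changes of -1.51 in OE-CTD relative to CT-CTD (adjusted p = 0.0761), -1.39 in CT diet and 1.81 in the interaction were -0.52, -0.39 and 0.81 without that library, none at an unadjusted p under 0.05.

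Cell cycle control genes, which Myod1 and Myog are known to engage at differentiation, numbered 11, of which 9 passed the filter, while Ccnb1 and Cdk1 were removed. By edgeR 0 of 9 passed in any of the 5 comparisons. At an unadjusted p under 0.05 there were 3 higher and 2 lower in OE-WD relative to CT-WD, 3 higher and 1 lower in OE-CTD relative to CT-CTD and 0 in the other comparisons, with medians of 0.336, 0.048, -0.033, 0.057 and 0.085 in genotype on WD, genotype on CTD, CT diet, EC-Myc OE diet and interaction. Ccnd1, the cyclin D of early cell cycle entry, had a log2 fold change of 1.24 on WD (SE 0.289, adjusted p = 0.0604), and Cdkn1a, a cyclin kinase inhibitor induced during myogenic differentiation and in denervation, -1.12 on WD (SE 0.387, adjusted p = 0.164). On CTD Ccnd3 had 0.35 and Cdkn1c -0.47. Cdkn1c had 18.35, 26.6 and 36.5 CPM in CT-CTD, highest in CT-CTD 3. CT-CTD 1 lay within the 17.0 to 20.5 CPM of OE-CTD. The proliferation markers Mki67 and Top2a were near 0.

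Sums of tendon and fibro-adipogenic markers were lower in some CT libraries than in every EC-Myc OE library. Of 6 tendon markers, 6 passed the filter, and their summed level was 235, 101 and 163.2 CPM in CT-CTD, 478, 84.1 and 107.2 CPM in CT-WD, 402.8, 607.8, 500.2 and 306.3 CPM in OE-CTD, and 410.1, 845.1, 558.6 and 301.3 CPM in OE-WD, Fmod being the most abundant at a mean of 192.4 CPM. Of 8 fibro-adipogenic markers, 8 passed, with sums of 526.8, 498 and 402.1 CPM in CT-CTD, 1098, 444.8 and 456.7 CPM in CT-WD, 1041, 1202, 1148 and 741.2 CPM in OE-CTD, and 817.8, 1700, 1016 and 857.7 CPM in OE-WD, Dcn leading at a mean of 263.9 CPM. Both sums were low in replicates 2 and 3 of the CT groups, the libraries in which Myod1, Myf6 and Mef2a were highest, while CT-WD 1 lay among the EC-Myc OE libraries and CT-CTD 1 below them. By edgeR 0 tendon markers passed, with 4 higher in OE-CTD relative to CT-CTD and 1 higher in OE-WD relative to CT-WD at an unadjusted p under 0.05 and 0 in the other comparisons, and medians of 1.408 and 1.299. Thbs4, a matrix protein of tendon and muscle attachment, had a log2 fold change of 1.11 on WD. Among fibro-adipogenic markers 1 was higher on CTD by edgeR, Cd34, a marker of endothelium and progenitors alike, which rose by 0.60 without overlap of the groups (SE 0.144, adjusted p = 0.0389), a call kept in 7 of 14 cases with a single library left out, with values of 0.53 to 0.70, and 0 passed on WD. With the names of CT-WD and OE-CTD exchanged Cd34 differed by 0.19 on CTD, with the replicate block by 0.67, by limma with either pseudocount by 0.53 and 0.59, and with CT replicates 2 and 3 left out by 0.75, none past the test, and its call was kept in 12 of 24 alternatives. At an unadjusted p under 0.05, 7 of 8 were higher on CTD and 3 on WD, with medians of 0.824 and 0.521, CT diet gave 0 by edgeR and 2 unadjusted with a median of 0.424, and EC-Myc OE diet and the interaction gave 0 by edgeR with 0 and 1 unadjusted. Macrophage sums were 71.7, 44.4 and 38.2 CPM in CT-CTD, 117.9, 58.1 and 49.4 CPM in CT-WD, 79.3, 94.7, 123.7 and 75.5 CPM in OE-CTD, and 69.6, 119.7, 73.7 and 77.1 CPM in OE-WD, with 8 of 8 markers tested and Lyz2 the most abundant at a mean of 28.1 CPM. By edgeR 0 macrophage markers passed in any comparison, with 8 of 8 higher at an unadjusted p under 0.05 on CTD, among them C1qa at 0.88 and C1qb at 0.87, 3 in CT diet and 0 on WD, against 15.9%, 7.28% and 16.9% of all genes, and medians of 0.878 on CTD, 0.119 on WD, 0.599 in CT diet (8 of 8 above 0), -0.029 in EC-Myc OE diet and -0.759 in the interaction (8 of 8 below 0, 1 at an unadjusted p under 0.05). The part of these cell types in the values of Myod1, Myf6 and Mef2a was not tested.

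Endothelial markers, among them Cdh5, whose promoter drives the transactivator, passed the filter in 9 of 9 cases and summed to 382.8, 378 and 418.3 CPM in CT-CTD, 462.6, 394.4 and 433.2 CPM in CT-WD, 472, 476, 447 and 463.9 CPM in OE-CTD, and 492.5, 499.8, 492.8 and 520.2 CPM in OE-WD, with Cdh5 the most abundant at a mean of 92.9 CPM. On each diet the EC-Myc OE sums lay above the CT sums without overlap. By edgeR 1 rose in each genotype comparison, Tek on CTD by 0.52 (SE 0.11, adjusted p = 0.0232) and Cdh5 on WD by 0.46 (SE 0.0905, adjusted p = 0.0322), each without overlap of the groups, with medians of 0.288 and 0.379. Single libraries left out kept the call of Tek in 9 of 14 cases, with values of 0.47 to 0.56, and that of Cdh5 in 9 of 14, with 0.43 to 0.51, and with the group names exchanged the values were 0.29 and 0.25. With the replicate block they were 0.53 and 0.49, and with CT replicates 2 and 3 left out 0.44 and 0.37, and neither passed in any of these fits. With only the groups compared Cdh5 did not pass either, at 0.46. Over all 24 alternatives the call of Tek was kept in 16 and that of Cdh5 in 15. Those at an unadjusted p under 0.05 were 5 higher and 0 lower on CTD, and 6 higher and 1 lower on WD, the lower being Flt1, picked out after its values were seen, at -0.33 (adjusted p = 0.173). In the other comparisons 0 passed, and 3, 1 and 1 had an unadjusted p under 0.05 in CT diet, EC-Myc OE diet and interaction. Fast fibre markers, of which 11 of 11 passed, summed to 114400 to 160700 CPM, with Tnnc2 near 0, and slow fibre markers, 9 of 9, to 4769 to 7542 CPM, with Atp2a2 the most abundant at a mean of 1581 CPM. By edgeR 0 of either list passed in any comparison. The slow fibre list had 3 higher at an unadjusted p under 0.05 in each genotype comparison, Atp2a2 at 0.39 on CTD and 0.44 on WD among them. The fast fibre list had 1 lower in each, Tnnc2 at -1.11 on CTD and Tnni2 at -0.29 on WD. Since Tnnc2 was near 0, its value rests on few counts. Why a fast fibre marker was near 0 in these libraries was not tested, so its count is not read as its expression. The same holds for Tagln among the smooth muscle markers below. The medians on CTD and WD were 0.209 and -0.024 for slow and 0.021 and -0.086 for fast fibre markers. Of the slow fibre markers, 9 of 9 were above 0 on CTD and 3 of 9 on WD. Their interaction had 2 lower at an unadjusted p under 0.05 and a median of -0.257. Smooth muscle and pericyte markers, 8 of 8, summed to 613.2 to 744.5 CPM, with Abcc9 leading at a mean of 247.4 CPM and Tagln near 0, and adipocyte markers, 7 of 7, to 168.3 to 509.7 CPM, with Fabp4 leading at a mean of 216 CPM. Of these, too, 0 passed by edgeR in any comparison, with Cspg4 at 0.78 on WD and 0.66 on CTD, Pdgfrb at 0.44 on WD and 0.28 in EC-Myc OE diet, Lep at 2.55 on WD and 1.95 on CTD, and Cfd at -1.34 on CTD at an unadjusted p under 0.05. Of 7 muscle fibre markers 0 passed in any comparison, by adjusted or unadjusted p. The medians on CTD and WD were 0.16 and 0.118 for smooth muscle, -0.257 and 0.606 for adipocyte and -0.009 and -0.075 for muscle fibre markers. Adipocyte markers had medians of -0.875 in CT diet (7 of 7 below 0), -0.079 in EC-Myc OE diet and 0.76 in the interaction, with 0 at an unadjusted p under 0.05 in each. On CTD Lep was the 1 adipocyte marker above 0, with 6 below, and on WD 5 were above 0 and 2 below.

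For each tested member, the genes whose log2 CPM was most like it over the 14 libraries are given by Pearson's r, then Spearman's rho, then r without the 2 libraries farthest from the member's median. They are descriptions, over libraries that share groups and sample name sets. Myod1 was most like Mpp5, a polarity protein (0.925, 0.899, 0.895), and the processed pseudogene Gm9115 (0.914, 0.89, 0.863). Mef2a was most like Dst, a cytoskeletal linker (0.959, 0.956, 0.945), and Smad3, a transducer of TGF-beta signals (0.952, 0.93, 0.966). Myf6 was most like Cct8, a chaperonin subunit (0.966, 0.754, 0.93), and Ankrd61 (0.956, 0.864, 0.904), which was also highest in CT-WD 3, at 8.22 CPM. Myog was most like Sap30, a subunit of a deacetylase complex (0.946, 0.596, 0.465), and the lincRNA Gm32219 (0.934, 0.618, 0.57). Both r values fell without CT-WD 2 and CT-WD 3, the farthest libraries of Myog. Sap30 was highest in these libraries, while Gm32219 stood apart only in CT-WD 3, at 24.7 CPM against 5.401 to 8.605 CPM elsewhere. Pax7 was most like Dmp1 (0.865, 0.815, 0.69) and Prox1, a homeobox factor (0.854, 0.741, 0.728). Myf5 was most like Zfp65 (0.847, 0.833, 0.781) and Mbd1 (0.831, 0.802, 0.817). Mef2c was most like 5031439G07Rik (0.934, 0.771, 0.731) and Synpo2 (0.914, 0.78, 0.677), with OE-CTD 4 and OE-WD 4 the farthest libraries. Mef2d was most like the mitochondrial tRNA gene mt-Tn (0.923, 0.877, 0.831) and Mllt1 (0.908, 0.864, 0.795), with the same farthest libraries. Ncam1 was most like Vangl2, a planar polarity protein (0.912, 0.785, 0.69), and Tle3 (0.888, 0.811, 0.658).

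Promoters of 300 bases, 250 before to 50 after the gene start, were taken from RefSeq on GRCm38.p6 and matched 6 of the 10 members with 8 entries: Pax7, Myf5, Myog, Mef2a, Mef2d and, with 3 entries, Mef2c. Myf6, Myod1, Mymk and Ncam1 had no entry. They were searched on both strands for CANNTG, the E-box core that myogenic bHLH factors bind, and for CTANNNNTA, a loose form of the A/T-rich core that Mef2 factors bind. Each N stood for any base, and matches on opposite strands may overlap. CANNTG was in 72.3% of 32851 promoters and in those of 2 members, Myog and Mef2c. CTANNNNTA was in 21% of the promoters and in those of 4 members, Myf5, Myog, Mef2a and Mef2c. The matches of Myf5 (CTAGGTTTA) and Mef2c (CTAACGATA) held G or C at the N positions. Those of Myog (CTATATTTA) and Mef2a (CTAAAAATA) held only A or T there. Mef2c was counted if any of its 3 entries had a match, while the shares are per promoter. A match is a description of letters in this window and not a bound site. The promoters of Myog, the most variable member, which held matches to both motifs, and of Mef2a, which held a Mef2 core match in its own promoter, are shown 5′ to 3′ with the matches in capitals. Both motifs together were in 15.7% of promoters. The Myog window is chr1:134289754-134290053 on the plus strand, with CACATG, CTATATTTA from base 187, and CAGTTG. The Mef2a window is chr7:67372809-67373108 on the minus strand, with overlapping matches on both strands from bases 249 and 250.
Myog: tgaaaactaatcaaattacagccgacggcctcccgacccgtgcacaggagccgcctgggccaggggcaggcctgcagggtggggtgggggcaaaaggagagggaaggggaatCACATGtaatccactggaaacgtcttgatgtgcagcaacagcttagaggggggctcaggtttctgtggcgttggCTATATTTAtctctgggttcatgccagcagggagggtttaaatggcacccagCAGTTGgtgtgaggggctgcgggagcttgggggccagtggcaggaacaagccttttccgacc
Mef2a: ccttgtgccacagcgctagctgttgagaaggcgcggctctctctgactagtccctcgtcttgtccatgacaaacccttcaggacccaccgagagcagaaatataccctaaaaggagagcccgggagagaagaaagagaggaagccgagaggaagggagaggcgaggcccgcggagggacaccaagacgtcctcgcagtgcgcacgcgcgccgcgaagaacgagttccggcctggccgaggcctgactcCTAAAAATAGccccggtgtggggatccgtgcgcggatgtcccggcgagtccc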

How the data were processed

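Per the submitters' processing notes, reads were aligned to mm10 with HISAT2 2.0.5 and counted with featureCounts 1.5.0-p3. The deposited table holds read counts, and the authors also deposited FPKM, their length-scaled values, for the same 14 libraries. Groups were taken from the labels. R 4.3.3 and edgeR 4.0.16 (TMM, filterByExpr with a minimum count of 10, quasi-likelihood test on a model of 4 group means) were used on 21833839 to 28519159 counts per library, with Benjamini-Hochberg adjustment over all genes tested within a comparison. Members were found by gene name. The members and lists were chosen with earlier results of these data known. Of each list, genes past an adjusted p of 0.05 were named, at most 4, and otherwise at most 2 with the smallest unadjusted p under 0.05; of each cell type list also the most abundant gene and genes near 0. Between diets, libraries of the same replicate number correlated above 0.1 for 3 of 3 numbers in CT and 3 of 4 in EC-Myc OE, and between genotypes for 0, so the labels' numbers were used as a block only as an alternative. Alternatives were DESeq2 1.42.0, RLE factors, no filter, only the groups compared, limma 3.58.1 on log2(FPKM + 1) or log2(FPKM + 0.1), a replicate block, exchanged names of CT-WD and OE-CTD, a fold limit of 1.5, unadjusted p, each library left out, and, chosen after seeing the data, CT replicate sets left out. Counts are without molecular identifiers, so statements on a count of 0 cover counting error only. Standard deviations (SD) are over libraries and standard errors (SE) are of the log2 fold change.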

Additional observations from a re-analysis of the deposited data

Results flagged for a closer look

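In groups of 4 libraries, the highest or lowest library was compared with the nearest other by its gap over the range of the group, for the 10 genes in OE-CTD and OE-WD. Of 20 groups tested, 3 exceeded the critical value, where chance alone gives about 1 in 20 groups if the tests are independent. The 10 genes share the same libraries, so these tests were not independent. Mymk in OE-CTD 3 was at 0.495 CPM (gap over range 0.959), from 12 counts against 4 to 6 in the other OE-CTD libraries, close to the detection limit. Mef2c in OE-WD 4 was at 676.1 CPM (0.97) and Mef2d in OE-CTD 4 at 376 CPM (0.875), in the libraries that also had the highest mitochondrial mRNA shares.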

How the results depend on the processing

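The number of members past the adjusted threshold moved with the processing in 4 of 5 comparisons, and the causes were not tested. For CT-WD relative to CT-CTD it was 0, and 1 without the filter (Myog), 1 with the names of CT-WD and OE-CTD exchanged (Myod1), 1 without CT replicate 1 of both diets (Myog), 1 by unadjusted p, and 0 to 1 with single libraries left out, 1 without CT-WD 1. For OE-WD relative to OE-CTD it was 0 under all 26 settings. For OE-WD relative to CT-WD it was 0, and 2 by DESeq2 (Myod1, Myog), 3 without the filter (Myf6, Myod1, Myog), 4 without CT replicate 1 of both diets (Pax7, Myf6, Myod1, Myog), 5 by unadjusted p, and 0 to 3 with single libraries left out, 3 without CT-WD 1. For OE-CTD relative to CT-CTD it was 1 (Myod1), and 0 by limma with either pseudocount, 0 with the replicate numbers as a block (Myod1 at -0.64, adjusted p = 0.151, over a range of 0.00104 to 0.934), 0 with names exchanged, 0 without CT replicates 2 and 3, 2 without CT replicate 1 (Myf6, Myod1), 3 by unadjusted p, and 0 to 1 with single libraries left out. For the interaction it was 0, and 1 without the filter (Myog), 1 by unadjusted p, and 0 to 0 with single libraries left out. With the names of CT-WD and OE-CTD exchanged, a different assignment of libraries, the log2 fold changes in OE-WD relative to CT-WD became 0.11 for Myf6, 0.27 for Myod1 and -0.047 for Ncam1, and that of Myod1 in OE-CTD relative to CT-CTD became 0.13. By the labels these are the diet values in EC-Myc OE and, for the last, in CT. Without CT replicates 2 and 3 of both diets, Myf6 in OE-WD relative to CT-WD became 0.084. With the replicate block, used because numbers correlated in CT, the Myog diet difference in CT was 1.72 (adjusted p = 0.133, over a range of 0.00033 to 1). Over the 10 single-gene differences and 239 recalculated values, 209 kept direction and side of the threshold, 15 newly passed, 10 no longer passed and 5 turned in direction. Pax7, Myf5 and Mymk had at most 65 counts in a library. Calls over all genes in OE-WD relative to CT-WD moved too, from 0.725% to 3.73% by DESeq2, 2.01% without the filter, 10.7% without CT replicate 1, 9.47% without CT-WD 1, 0.0363% without CT replicates 2 and 3, 0.311% by limma with a pseudocount of 1, 0.0441% without CT-WD 3, 0.026% without OE-WD 2, 0.0269% with only the groups compared and 0.00647% with the block. In CT-WD relative to CT-CTD they were 0%, 0.333% without the filter, 2.67% with names exchanged, 0.265% without CT-WD 1, 0.226% by DESeq2, 0.0841% with the block and 0.198% without CT replicate 1. In OE-CTD relative to CT-CTD they were 2.67%, 5.27% by DESeq2, 4.88% without CT replicate 1, 0.417% without CT replicates 2 and 3, 1.49% by that limma fit, 0.485% without CT-CTD 3, 0.674% without CT-CTD 2, 0.787% without OE-CTD 2, 0.786% without OE-CTD 3, 0.0906% with the block and 0% with names exchanged. In the interaction they were 0%, and 0.104% without the filter. None of the 8 list gene calls, all between genotypes, was kept with the block. Between genotypes no replicate number correlated above 0.1, so the block there paired libraries by number alone. Replicate 4 of EC-Myc OE had no CT partner and added nothing to those differences.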

Other observations

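CT-WD 3, the library with the highest Myog and Myf6, was also the highest of the 14 for several genes named under the lists or by likeness to a member. They were picked out after their values were seen. Rcan1 was at 489.8 CPM in CT-WD 3 and at 129.3 to 267.9 CPM in the other 13 libraries. Sdc4 was at 80.1 CPM and at 26.4 to 53.9 CPM in the others, and Sik1 at 90.0 CPM and at 22.03 to 62.5 CPM in the others. Sap30 was at 18.8 CPM in CT-WD 3, where CT-WD 2 followed at 11.2 CPM. Musk was at 62.4 CPM and at 13.9 to 49.1 CPM in the others, and Cdkn1a at 60.2 CPM and at 10.5 to 51.7 CPM in the others.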
